A study of Mus musculus with 41 samples.

Results

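The genes described here are 9 genes of transforming growth factor beta (TGF-beta) signaling, taken by symbol from the 47480 gene symbols of the deposited expression table. They are 3 ligands (Tgfb1, Tgfb2 and Tgfb3), 3 receptors (Tgfbr1, Tgfbr2 and Tgfbr3) and 3 Smads (Smad3, Smad6 and Smad7), and all 9 passed the filter on low values in every fit. They were followed across 41 mouse mammary tumors, of which 28 were Plk2-/-; p53-/- (PLK2null) and 13 were p53-/- (p53null). All tumors were in the Balb/c strain, carried the p53 deletion and grew orthotopically in syngeneic hosts without treatment, and the ages of the mice were not given in the sources used here. The PLK2null tumors came from mammary epithelial cells placed into wild-type Balb/c recipients, so that blood vessels, immune cells and other host cells in them keep an intact Plk2 gene. The study classed PLK2null-732, PLK2null-733 and PLK2null-743 among the PLK2null tumors, and T11 among the p53null tumors, as claudin-low, a class of mammary tumor with low epithelial junction genes. That class was assigned by clustering these same libraries, so a test of the class is not independent of them.

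TGF-beta ligands are secreted in a latent complex and have to be released before they bind. The released ligand binds the type II receptor Tgfbr2, which phosphorylates the type I receptor Tgfbr1, while Tgfbr3 (betaglycan) is a co-receptor that presents ligand, Tgfb2 above all. Tgfbr1 phosphorylates Smad2 and Smad3, which enter the nucleus with Smad4 and regulate transcription, and the inhibitory Smads Smad6 and Smad7 are induced by the signal and dampen it. In normal mammary epithelium the pathway restrains growth, and in tumors it is also known for loss of epithelial traits and for its action on stroma and vessels.

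The values are a linear signal that the authors brought to a common scale, on which each tumor has an upper quartile of 1000 over its nonzero genes. The value of a single read gave an implied depth of 29409609 to 70868124 fragments per tumor, and 3 reads, used as the floor, were worth 1.16 to 2.45. Every member was above that floor in every tumor, and the lowest member value was 38.1. As a check of the labels, the value of Plk2 was 36.6 to 553 (median, 284) in the PLK2null tumors and 186 to 8028 (median, 3402) in the p53null tumors, and the lowest p53null value, in p53null-7435, lay inside the PLK2null range. The titles of all 13 p53null libraries carry a numbered series name that the PLK2null titles lack, so a library batch and the genotype cannot be told apart. The sources used here do not say which tumors descend from a common primary tumor, so the tests treated all tumors as independent. The p-values concern these tumors only and can be too small if some of them are related. In whole tumors, fewer cells of a type and less RNA per cell cannot be told apart.

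The label of the tissue was checked against 6 epithelial markers (Epcam, Krt8, Krt18, Cdh1, Cldn3 and Cldn7). Their summed value was 13539 to 119162 in the 25 PLK2null tumors outside the claudin-low class, 74293 to 295213 in 12 p53null tumors and 45.7 to 291 in the 3 claudin-low PLK2null tumors. Each of the 6 markers was lower in all 3 claudin-low PLK2null tumors than in all 25 others, so epithelial transcripts were nearly absent from those libraries. The same libraries were rich in transcripts of vessels, with a summed endothelial value of 165585 to 186496. The adipocyte gene Fabp4 was at 99093 to 124638, but it alone of 5 adipocyte markers was above all 25 others in all 3. Adipoq was at 3.58 to 11.9 and Plin1 at 15.6 to 27.1, against medians of 10.3 and 1.44 in the 25. Plk2 itself was at 36.6 to 128 (median, 54.4) in these 3 libraries and 83.3 to 553 (median, 314) in the other 25. The files do not separate tumor cells from host tissue, so the claudin-low PLK2null values below are those of libraries with this makeup. Which cells the values came from was not tested. T11 had a sum of 33742, which came from keratins: Krt8 was at 11057, while Epcam was at 81.4, Cdh1 at 61.9, Cldn3 at 19.9 and Cldn7 at 13.8, the last 4 below all 12 other p53null tumors. PLK2null-7763 had the lowest sum of the 25, 13539.

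**Figure D1:**
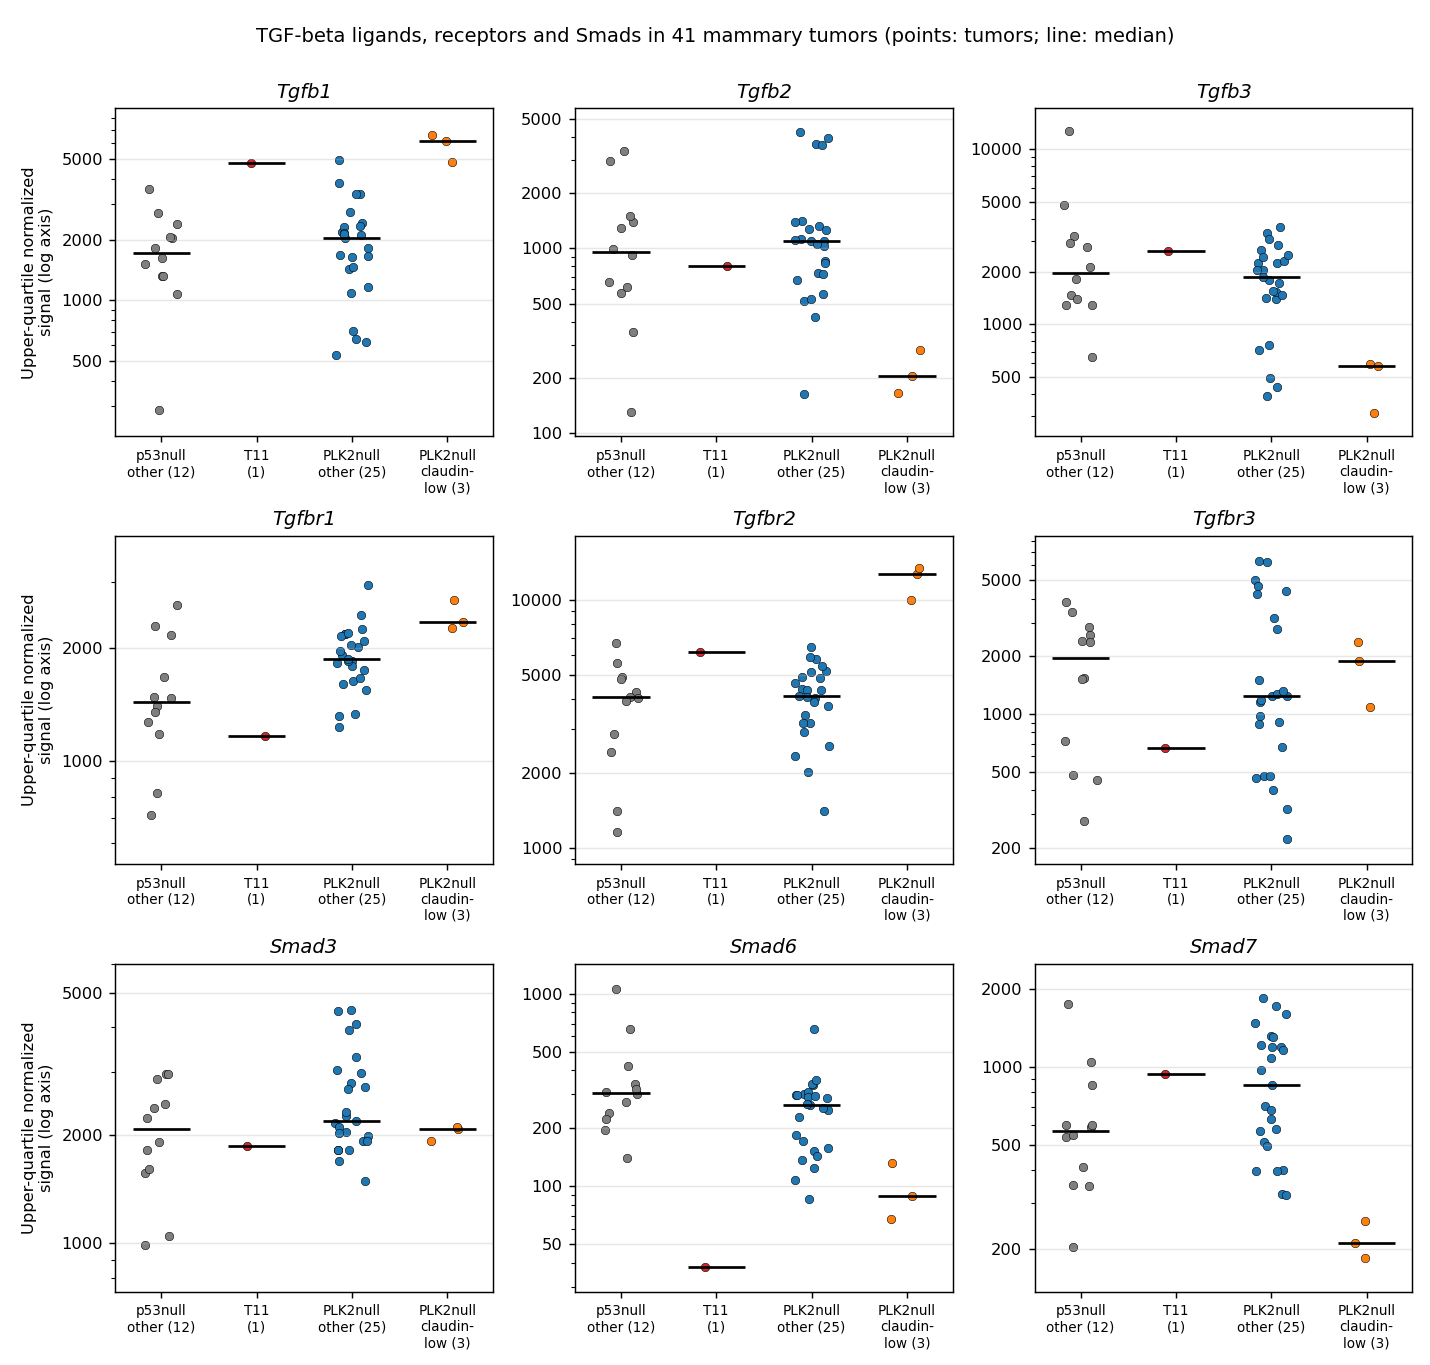
Upper-quartile normalized signal of the 9 genes (log axis) in each tumor, by genotype and claudin-low class, where each point is a tumor and each line a median. The 3 claudin-low PLK2null tumors sit above all 25 others for Tgfbr2 and below all 25 for Smad7, and T11 is the lowest tumor for Smad6.

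In GRCm38, with gene bounds from GENCODE vM21, Tgfb1 lies at chr7:25687002-25705077, Tgfb2 at chr1:186622792-186705989, Tgfb3 at chr12:86056745-86079041, Tgfbr1 at chr4:47353222-47414931, Tgfbr2 at chr9:116084293-116175360 and Tgfbr3 at chr5:107106570-107289629. Smad3 (chr9:63646767-63757994) and Smad6 (chr9:63953076-64022059) are on the same chromosome and strand.

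To compare levels between genes, the signal was divided by the length of the merged exons of each gene (GENCODE vM21, GRCm38). On this per-kb scale the order of the medians over 41 tumors was Tgfb3 (539), Tgfbr2 (518), Tgfb1 (407), Smad3 (380.1), Tgfbr1 (282), Tgfbr3 (195), Tgfb2 (172), Smad7 (132) and Smad6 (82.3). Most neighbors in that order were not separated beyond their spread. The ratio of neighbors exceeded 1 SD over the tumors only for Smad3 over Tgfbr1, at 0.60 ± 0.59 (SD of the log2 ratio, n = 41), and Smad3 was the higher in 36 of 41 tumors. Smad7 over Smad6 came next, at 1.05 ± 1.05, with Smad7 the higher in 38 of 41.

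Among the ligands, Tgfb3 had the highest level per kb in 28 of 41 tumors, Tgfb1 in 8 and Tgfb2 in 5. All 4 claudin-low tumors were among the 8 led by Tgfb1. Tgfb1 made up 84.5 to 88.9% of the summed per-kb ligand signal in the 3 claudin-low PLK2null tumors, against 17.5 to 59.6% in the other 25, so the groups did not overlap. In T11 the share was 50.8%, inside the range of the other p53null tumors (1.42 to 56.1%).

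Among the receptors, Tgfbr2 led per kb in 30 of 41 tumors, Tgfbr3 in 8 and Tgfbr1 in 3. Its share of the summed receptor signal was 63.3 to 74.8% in the 3 claudin-low PLK2null tumors and 19.5 to 65.2% in the other 25. In T11 it was 72.9%, above the 12 other p53null tumors (32.0 to 64.3%). Smad3 led the 3 Smads per kb in 40 of 41 tumors, and the exception was p53null-5317, where Smad7 led.

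**Figure D2:**
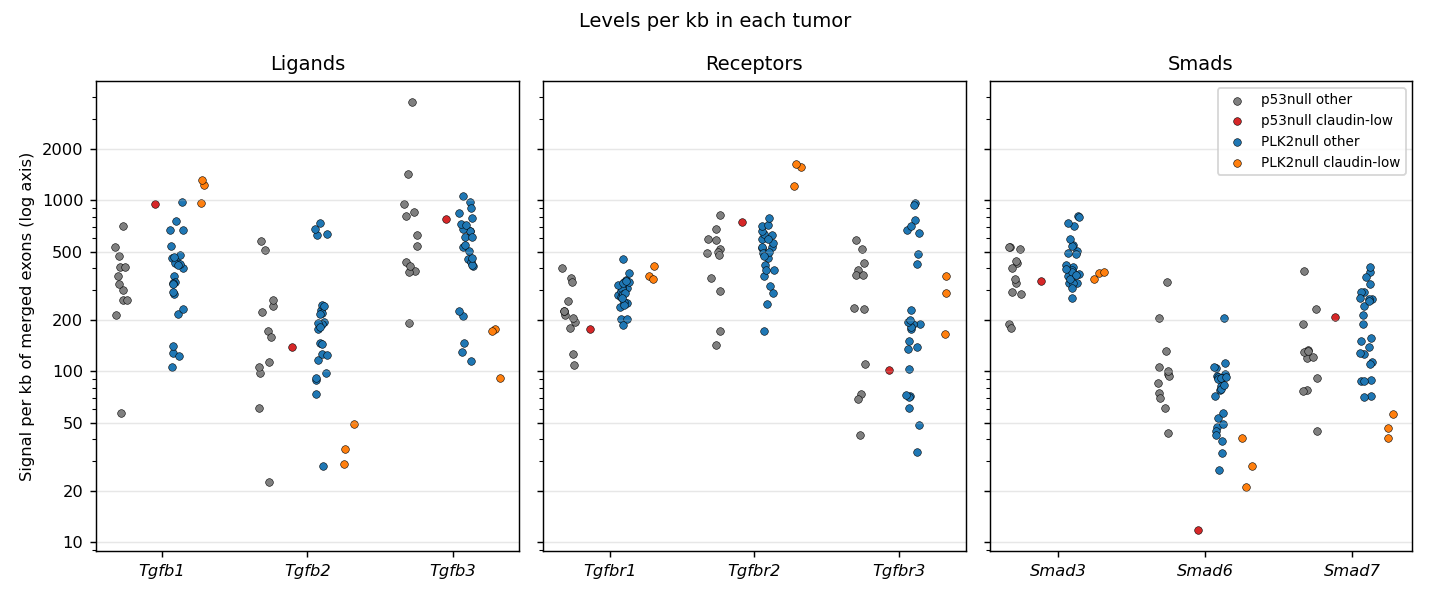
Signal per kb of merged exons (log axis) of the ligands, receptors and Smads in each tumor, with a point for each tumor colored by genotype and class. Tgfb3 leads the ligands in 28 of 41 tumors and Tgfb1 in all 4 claudin-low tumors.

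The members differed in how far they varied among tumors. Tgfbr1 was the steadiest, with an SD of 0.44 in log2(value + 1) over 41 tumors, smaller than that of most genes (the median over 17208 genes was 0.76). Smad3 had an SD of 0.48. Tgfbr3 varied most, with an SD of 1.30 and a 28.3-fold range, followed by Tgfb2 with an SD of 1.23 and a 32.6-fold range. Tgfb3 had a 40.7-fold range, which rested on p53null-10152 and was 15.4-fold without it.

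The variation of Tgfb2 and Tgfbr3 ran in blocks of tumors that were picked out after their values were seen and get no test. In PLK2null-1984, PLK2null-7750, PLK2null-1985 and PLK2null-1986, Tgfb2 was at 3644, 3660.1, 3934 and 4240.5, whereas the next PLK2null tumor was PLK2null-1970 at 1410. In the same 4 tumors Tgfbr3, whose product presents that ligand, was low, at 222 to 474. Among PLK2null tumors it was also in that range in PLK2null-7753 (473) and PLK2null-1987 (464), where Tgfb2 was at 1051 and 569. Over all 41 tumors, Spearman's rho of Tgfb2 with Tgfbr3 was -0.16. In a second block, PLK2null-7747, PLK2null-1963, PLK2null-1964 and PLK2null-1965, Tgfb1 was at 536 to 708, the lowest values of the PLK2null tumors. Tgfb3 was at 389.8 to 764 in that block, and Tgfbr3 (4232 to 6177) and Smad3 (3302 to 4461) were high. Among the p53null tumors, p53null-10152 had the highest Tgfb3 of all 41 tumors (12642) and the lowest Tgfb1 (287).

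**Figure D3:**
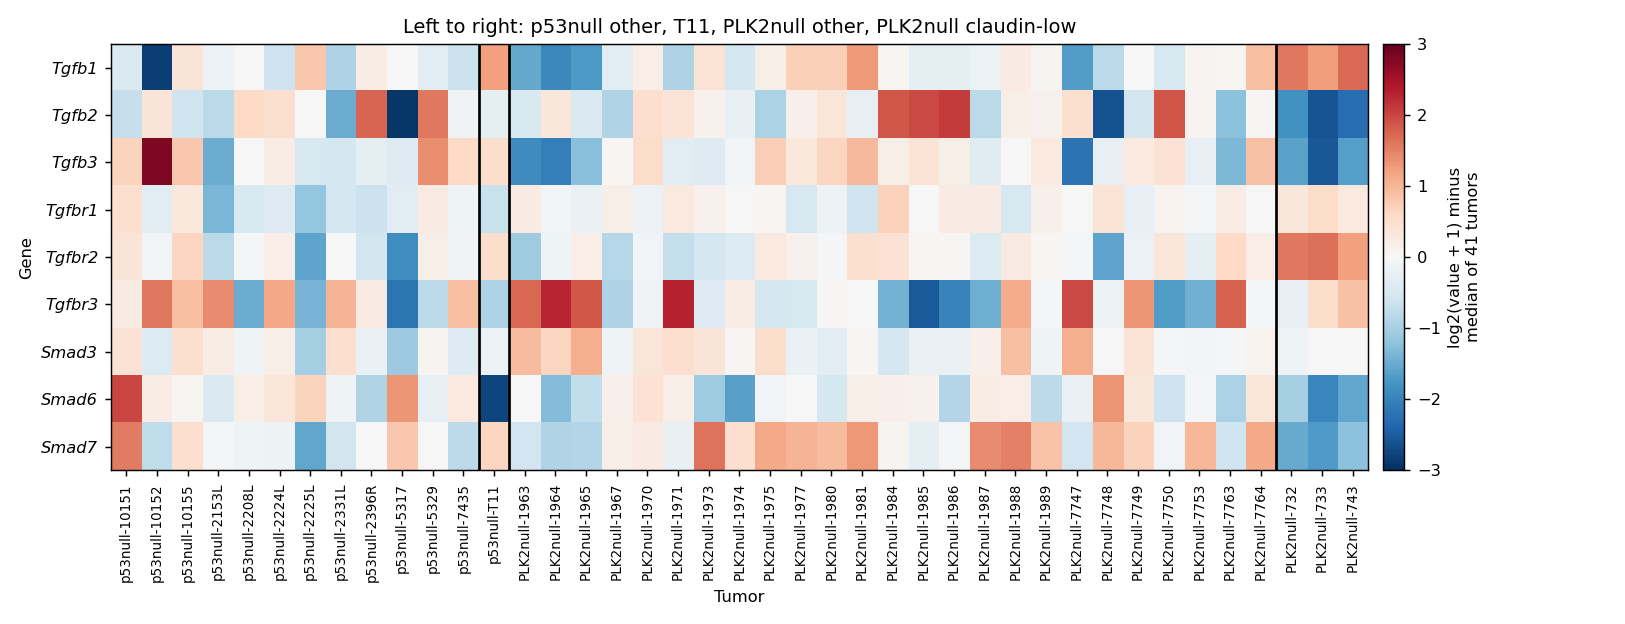
Each cell is log2(value + 1) of a gene in a tumor minus the median of that gene over 41 tumors, with tumors grouped by genotype and class. The PLK2null-1984 to PLK2null-1986 columns and PLK2null-7750 show high Tgfb2 (3644 to 4240.5) beside low Tgfbr3.

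Over the 41 tumors, Spearman's rho for the 36 pairs of members ran from -0.35 (Tgfb1 with Tgfbr3) to 0.58 (Tgfbr3 with Smad3). The values are descriptions, since the tumors include the blocks and classes above. Tgfb3 and Smad7 had a rho of 0.48 and Tgfb1 and Tgfbr2 one of 0.40. Likeness was ranked over all genes tested except predicted genes (Gm numbers and Rik names). The gene most like Smad7 was Pmepa1 (rho = 0.84), a membrane protein that is itself a TGF-beta target and inhibitor. Cd44 (0.84) and Cwh43 (0.81) followed. The genes most like Tgfbr2 were Cdh5 (0.77), the cadherin of endothelial junctions, Tfpi (0.76), an inhibitor of blood coagulation, and Ccm2l (0.76). Tgfb1 was most like Plaur (0.76), the urokinase receptor, Cpa1 (0.76) and Tfpi2 (0.75), and Tgfb3 most like Btn1a1 (0.77), a protein of milk fat globules, Os9 (0.75) and the casein gene Csn1s2a (0.74). For the other members the leading genes were Eci3 for Tgfb2 (0.76), Gnai1 for Tgfbr3 (0.76), Chd7 for Tgfbr1 (0.71), Akt1s1 for Smad6 (0.71) and Ccdc186 for Smad3 (0.68).

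The first comparison asked how the genes differ between PLK2null and p53null tumors. Only Tgfbr1 was called, at a Benjamini-Hochberg adjusted p below 0.05 in limma. That is 1 of 9 members, in a comparison that called 39.5% of 17208 genes (24.3% higher and 15.3% lower in PLK2null), so their share lay under that of all genes. The values of the 2 genotypes overlapped for all 9 members, but the share of all genes that overlap in this way was not counted. The members' median difference in log2(value + 1) was 0.21 and that of all genes 0.097.

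Tgfbr1, the type I receptor kinase, ranged from 1227 to 2958 (median, 1945) in the 28 PLK2null tumors and from 713 to 2615 (median, 1401) in the 13 p53null tumors. Of the PLK2null tumors, 25 lay above the p53null median, and 3 of the p53null tumors lay above the PLK2null median. The difference was 0.44 in log2(value + 1) (SE, 0.13; 1.36-fold; limma adjusted p = 0.00765). It was 0.30 on the scale of TMM, the trimmed mean of M values (adjusted p = 0.0483). With only the 7 PLK2null tumors that the study names as primary, it was 0.45 and not called (adjusted p = 0.186, the highest among alternatives, where the lowest was 0.00156).

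The ligands were not called between the genotypes. Tgfb3 was at 311 to 3595 (median, 1758) in PLK2null and 652 to 12642 (median, 2114) in p53null tumors, a difference of -0.66 (95% interval, -1.35 to 0.02; limma adjusted p = 0.119). Its highest value came from p53null-10152. Tgfb1 was at 536 to 6632 (median, 2130.04) against 287 to 4779 (median, 1822) and differed by 0.21 (-0.43 to 0.85). Tgfb2 was at 162 to 4240.5 (median, 1038) against 130 to 3351 (median, 919) and differed by 0.0075 (-0.82 to 0.84).

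The ligand-binding receptor Tgfbr2 was at 1406 to 13430.4 (median, 4331) against 1160 to 6679 (median, 4055), a difference of 0.28 (95% interval, -0.21 to 0.77), and every PLK2null value above the p53null range came from a claudin-low tumor. The co-receptor Tgfbr3 was at 222 to 6288 (median, 1244) against 278 to 3843 (median, 1535), a difference of 0.047 (-0.83 to 0.92). Among the Smads, the signal-carrying Smad3 was at 1489 to 4461 (median, 2134) against 989.9 to 2970.3 (median, 1923) and differed by 0.30 (-0.016 to 0.62). None of these was called. The inhibitory Smad6 was at 67.7 to 659.6 (median, 252) against 38.1 to 1062 (median, 302), a difference of -0.39 (-0.98 to 0.20). Smad7 was at 185 to 1850.1 (median, 693) against 202 to 1754 (median, 589), a difference of 0.25 (-0.36 to 0.86). Smad6 was called when T11, its lowest tumor, was left out (-0.63; limma adjusted p = 0.0494, the lowest among alternatives, where the highest was 0.985).

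**Figure D4:**
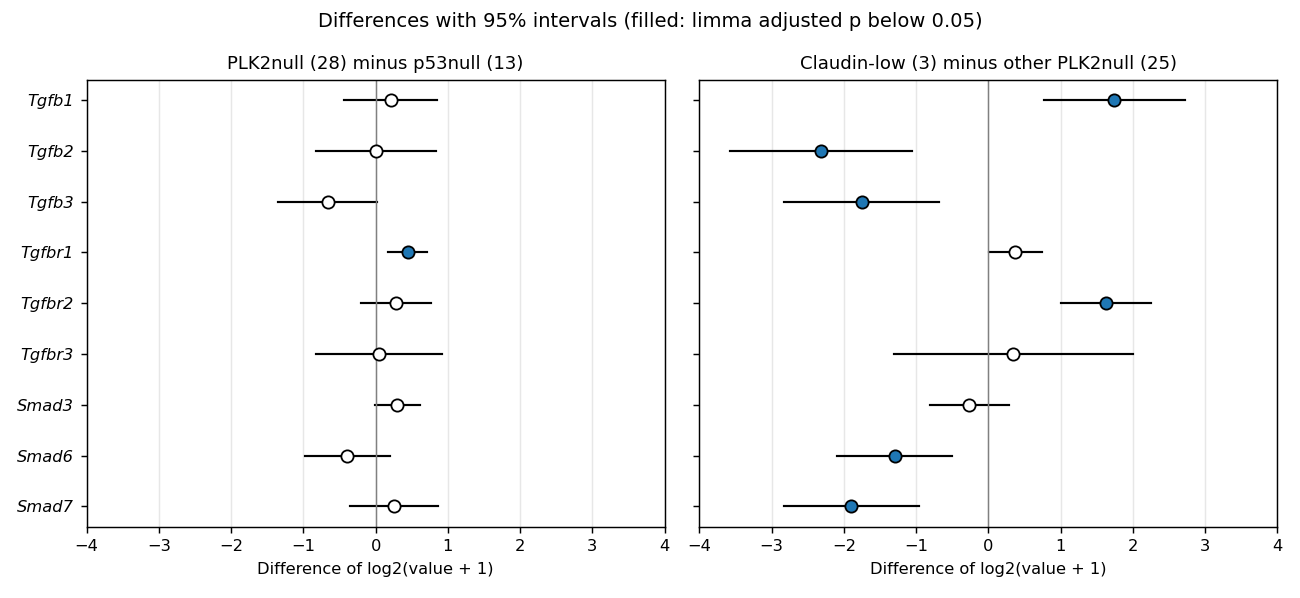
Difference in log2(value + 1) with its 95% interval for each gene, between genotypes (left) and between claudin-low and other PLK2null tumors (right), where filled points passed an adjusted p below 0.05. Tgfbr1 alone is filled on the left, and 6 of 9 genes are filled on the right.

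Other genes of the pathway were taken by lists of Smads, latency and activation genes, further receptors, activins, BMPs and their traps, Smad regulators and response genes. Between the genotypes, where 39.5% of all genes were called, the share of called genes was 2 of 5 for the other Smads and 4 of 10 for the Smad regulators, both close to that background, and below it for the 4 other lists. Of the other Smads, 2 were higher in PLK2null tumors and none lower: Smad1 (2.00-fold; SE of the log2 difference, 0.38; limma adjusted p = 0.0333) and Smad5 (0.41; SE, 0.17; adjusted p = 0.0474), both of the BMP branch. The median of that list was 0.11. Of 10 further receptors, 2 were higher and none lower, namely the BMP receptors Bmpr1b (1.21) and Bmpr2 (0.68; SE, 0.10; adjusted p = 7.89e-07), with a list median of 0.087. Bmpr2 was at 4601 ± 703 (SD, n = 28) against 2920.1 ± 741 (SD, n = 13).

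Of 11 latency and activation genes, only Ltbp4, a latent TGF-beta binding protein, was called, and it was lower (-1.26; limma adjusted p = 0.0448), with a list median of 0.10. Of 11 activin and BMP genes tested, the ligand Bmp7 was lower (-3.57; SE, 1.21; adjusted p = 0.0163) and none was higher, with a list median of 0.17. Bmp7 had a median of 99.0 in PLK2null and 4215 in p53null tumors, but both groups reached down to a few reads.

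Of 10 Smad regulators, 3 were higher, the ubiquitin ligases Smurf2 (0.64; SE, 0.16; limma adjusted p = 0.00106) and Smurf1 (0.60; SE, 0.19) and the corepressor Tgif1 (0.58; SE, 0.21), and the phosphatase Ppm1a was lower (-0.31; SE, 0.12; adjusted p = 0.0314). Of 14 TGF-beta response genes, Snai1 was higher (1.55) and Snai2 (-1.74) and Acta2 (-1.49) were lower. The medians of these lists were 0.23 and -0.29. TMM moved the median of all genes from 0.097 to -0.045 and the calls from 4175 higher and 2627 lower to 3221 higher and 3711 lower, and quantile normalization gave 3425 and 3325. Smad1, Smad5, Bmpr1b, Smurf1 and Tgif1 were not called after TMM, with adjusted p from 0.068 to 0.157. With only the 7 named primary tumors against 13, Bmpr2 alone was still called among the named genes, at most 3 in each list.

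The second comparison asked how the 3 claudin-low PLK2null tumors differ from the other 25, within a single genotype and with tumors that the first comparison also used. It called 6 of 9 members, 2 higher (Tgfb1 and Tgfbr2) and 4 lower (Tgfb2, Tgfb3, Smad6 and Smad7), in a comparison that called 37.3% of 17153 genes, 20.2% higher and 17.1% lower. The median difference of the members was -0.26 and that of all genes 0.023. Smad3, Tgfbr1 and Tgfbr3 were not called.

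Tgfb1, the most widely expressed of the ligands, was at 6181 in PLK2null-732, 4876 in PLK2null-733 and 6632 in PLK2null-743, against 536 to 4939 (median, 2035) in the other 25. Of the 25, only PLK2null-1981 (4939) lay above the lowest of the 3. The difference was 1.74 (SE, 0.48; 3.35-fold; limma adjusted p = 0.00484).

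The other ligands were lower. Tgfb2 was at 284, 165 and 203 in the 3 tumors in the same order, against 162 to 4240.5 (median, 1093) in the other 25, a difference of -2.31 (SE, 0.61; adjusted p = 0.00373). PLK2null-7748, at 162, was the only one of the 25 inside their range or below it. Tgfb3 was at 595, 311 and 583 against 389.8 to 3595 (median, 1865), a difference of -1.76 (SE, 0.52; adjusted p = 0.00898), and 3 of the 25 lay below the highest of the 3. Tgfb3 was not called without PLK2null-733 (-1.45; adjusted p = 0.0921, the highest among alternatives, where the lowest was 0.0029).

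Among the receptors, Tgfbr2 was at 12738, 13430.4 and 9981.5, all above the 25 others (1406 to 6454; median, 4089). The difference was 1.63 (SE, 0.30; 3.09-fold; limma adjusted p = 0.000102). All 3 tumors lay above all 25 for 1 of 9 members, which was Tgfbr2, and for 11.1% of all genes tested. The highest of the 25 was PLK2null-7763, at 6454. Tgfbr1 was at 2344, 2687 and 2267 against 1227 to 2958 (0.38; 95% interval, 0.0030 to 0.75; adjusted p = 0.107), and Tgfbr3 at 1082, 1881 and 2363 against 222 to 6288 (0.34; -1.31 to 2.00).

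Both inhibitory Smads were lower. Smad7, which binds the activated type I receptor and recruits ubiquitin ligases to it, was at 211, 185 and 255, all below the 25 others (321 to 1850.1; median, 856). Its difference was -1.90 (SE, 0.46; limma adjusted p = 0.00154). All 3 tumors lay below all 25 for 1 of 9 members, which was Smad7, and for 8.87% of all genes. Together 2 of 9 members showed no overlap, against 20% of all genes. Smad6, which acts mainly on BMP receptors, was at 131, 67.7 and 89.2 against 85.2 to 659.6 (median, 264), a difference of -1.30 (SE, 0.39; adjusted p = 0.00925), and 3 of the 25 lay below the highest of the 3. It too was not called without PLK2null-733 (-1.07; adjusted p = 0.0927, the highest among alternatives, where the lowest was 0.000332).

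Smad3 was at 1930.3, 2107 and 2077 against 1489 to 4461 (median, 2199), a difference of -0.26 (95% interval, -0.81 to 0.28). Its signaling partners Smad2 (-0.022) and Smad4 (0.017) were likewise not called.

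Markers of other cell types differed between the same groups. All 6 endothelial markers were called higher in the 3 claudin-low PLK2null tumors, with a summed value of 165585 to 186496 against 2572 to 78025 in the other 25. All 6 pericyte markers were higher (88851 to 105609 against 3418 to 35501), as were 4 of 4 lymphatic endothelial markers (38027 to 54617 against 178 to 14560) and 6 of 6 T cell markers (533 to 1119 against 22.5 to 1265). Of 6 macrophage markers, Mrc1 was higher (11344 to 18885 against 4496 to 35466 for the list), and of 6 fibroblast markers, 3 were lower (14888 to 56137 against 12210 to 280437). Of 3 platelet markers tested Pf4 was higher (749.7 to 1549 against 136 to 677 for all 5 listed). Of 4 adipocyte markers tested Fabp4 was higher (99118 to 124694 against 226 to 51831 for the list). That adipocyte sum was nearly all Fabp4 in the claudin-low tumors, at 103406 of 103434 in PLK2null-732. The part of these cells in the differences of the members was not tested. PLK2null-7763 had the highest endothelial sum of the 25 (78025), and it ranked first of the 25 for Tgfbr2 and 24th, 22nd, 22nd and 23rd for Tgfb2 (425), Tgfb3 (717), Smad6 (136) and Smad7 (399). Tgfb1, the sixth called member, was at 2122 in PLK2null-7763, which ranked 12th of the 25, near their median of 2035. Without PLK2null-7763 the same 6 members were called.

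T11 gave the claudin-low class a single tumor in the other genotype. Its endothelial sum was 6876, inside the range of the 12 other p53null tumors (2041 to 16463). Tgfb1 was at 4779 in T11, above all 12 (287 to 3575; median, 1723), and Smad6 was at 38.1, below all 12 (139.9 to 1062). These were 2 of 9 members outside the range of the 12, and 29.6% of 17208 genes lay outside it. Tgfbr2 was at 6154, below only p53null-10155 (6679), while Smad7 was at 937, above 10 of the 12, and Tgfb2 (805) and Tgfb3 (2630) lay inside the range.

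Whether the claudin-low difference itself differed between the genotypes was tested as an interaction, with T11 assumed to vary like the other tumors. None of 9 members was called in limma, against 9.97% of 17208 genes (6.54% higher and 3.43% lower). The term was -2.63 for Smad7 (SE, 0.92; adjusted p = 0.0613) and 1.75 for Smad6 (SE, 0.82; adjusted p = 0.184). Smad7 was called when p53null-10151, PLK2null-7763, PLK2null-1965 or PLK2null-1964 was left out, with adjusted p of 0.0358 to 0.04996 (0.0358 to 0.115 over all tumors left out).

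The promoters of members that moved in the claudin-low tumors are shown for their letters alone. Windows of the RefSeq promoter table (GRCm38.p6) were read for Tgfb1, Tgfb2, Tgfbr1, Tgfbr2, Smad3 and Smad6. The 250 bases before the start are printed for the 4 of these that were called. They are Tgfb1 at chr7:25686752-25687001 (plus strand), Tgfb2 at chr1:186705990-186706239 (minus), Tgfbr2 at chr9:116175364-116175613 (minus) and Smad6 at chr9:64022060-64022309 (minus). Each reads 5′ to 3′ on the strand of its gene, and capitals mark the Smad-binding letters CAGAC or their reverse complement GTCTG.
Tgfb1: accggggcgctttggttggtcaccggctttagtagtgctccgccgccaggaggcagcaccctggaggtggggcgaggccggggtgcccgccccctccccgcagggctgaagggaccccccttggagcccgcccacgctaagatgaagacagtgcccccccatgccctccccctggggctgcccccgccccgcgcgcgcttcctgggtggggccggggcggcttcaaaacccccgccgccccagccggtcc
Tgfb2: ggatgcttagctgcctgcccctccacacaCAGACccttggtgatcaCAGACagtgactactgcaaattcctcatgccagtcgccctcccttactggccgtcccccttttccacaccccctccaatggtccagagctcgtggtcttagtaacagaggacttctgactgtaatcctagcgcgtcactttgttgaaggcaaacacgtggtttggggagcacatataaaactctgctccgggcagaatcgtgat
Tgfbr2: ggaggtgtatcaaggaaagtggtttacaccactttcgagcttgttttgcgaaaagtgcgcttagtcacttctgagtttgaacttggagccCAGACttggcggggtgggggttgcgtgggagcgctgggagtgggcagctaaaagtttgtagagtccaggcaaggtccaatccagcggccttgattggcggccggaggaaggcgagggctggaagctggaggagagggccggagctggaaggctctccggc
Smad6: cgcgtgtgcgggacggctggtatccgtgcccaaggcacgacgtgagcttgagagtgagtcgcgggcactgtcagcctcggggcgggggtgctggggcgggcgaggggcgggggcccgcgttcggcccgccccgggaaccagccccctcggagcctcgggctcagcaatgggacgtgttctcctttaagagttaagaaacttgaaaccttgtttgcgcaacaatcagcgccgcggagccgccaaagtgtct

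The Tgfb2 window held 2 such matches, which begin 221 and 204 bases before the start, and the Tgfbr2 window held 1, at 160 bases. The windows of Tgfb1 and Smad6 held none. Of 32851 windows of this length in the table, 42.2% held at least 1 match on either strand. The GC box GGGCGG, searched on both strands, occurred 5 times in the Tgfb1 window and 4 times in the Smad6 window and in 32.7% of all windows, and it was not in the windows of Tgfb2 and Tgfbr2, so no window of the 4 held both motifs. Of the genes that were higher, Tgfbr2 had a CAGAC match and Tgfb1 had none. Of those that were lower, Tgfb2 had matches and Smad6 had none. Tgfb3 had no window, and Smad7 was set aside before windows were looked up, so neither was examined.

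The same lists were read in the claudin-low PLK2null tumors against the 37.3% of all genes called there (20.2% higher and 17.1% lower). The share called was above that for latency genes, receptors, other Smads, activin and BMP genes and Smad regulators and below it for response genes, and these differences in share were not tested. Genes named beyond the 3 with the largest difference in each list were named after their values were seen. Of 11 genes of latency and activation, 3 were higher and 6 lower, with a list median of -2.13. Subunits of the integrins that release latent TGF-beta were lowest: Itgb6 was at 0.599 to 1.69, at or under the 3-read floor in all 3 tumors, against 36.7 to 344 in the other 25, and Itgb8 was at 6.78 to 10.8 against 167 to 1780.1 (-5.69; limma adjusted p = 5.35e-09). The latent TGF-beta binding protein Ltbp4 was higher, at 7380 to 10379 against 162 to 2531 (4.29; SE, 0.57; adjusted p = 8.46e-07). The other 2 higher genes were Lrrc32 (3.97) and Nrros (3.24), which hold latent TGF-beta at the surface of regulatory T cells, endothelium and platelets or of macrophages.

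Of 10 further receptors, 2 were higher and 4 lower, with a list median of -0.36. Acvrl1 (ALK1), the type I receptor of endothelial cells, was at 2525 to 3273 against 224 to 1706 (2.94; SE, 0.36; limma adjusted p = 2.08e-07). Its co-receptor Eng (endoglin) was at 6722 to 7581 against 552 to 3216 (2.56; SE, 0.39; adjusted p = 6.81e-06). The BMP receptor Bmpr1a was lower, at 502 to 643 against a median of 2974 and none of the 25 so low (-2.33; SE, 0.24; adjusted p = 1.35e-08), and Acvr1b, Acvr1 and Bmpr2 were the other lower genes.

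Of the 5 other Smads, 2 were higher and 1 lower, with a list median of 0.017. Smad1 was at 11645 to 13356 against 498 to 5054 (3.15; SE, 0.53; limma adjusted p = 2.90e-05) and Smad5 at 7282 to 8003 against 1685 to 5928 (1.18; SE, 0.25; adjusted p = 0.000476). Both carry the BMP signal, and ALK1 also acts through them. Smad9 was lower but scarce, at 1.13 to 3.58 against 2.24 to 101, and it was not called with a pseudocount of 10 (adjusted p = 0.0991).

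Of 11 activin and BMP genes tested, 2 were higher (Gdf15 and Bmp4) and 4 lower, with a list median of -0.62. The BMP antagonist Grem1 was at 0.716 to 6.78 against 6.19 to 2322, the activin trap Fst at 7.19 to 65.5 against 234 to 4590.4 (-4.88; SE, 0.66; limma adjusted p = 1.01e-06) and the activin subunit Inhba at 4.19 to 36.1 against 13.7 to 852 (-3.46; SE, 0.87; adjusted p = 0.00229). The fourth lower gene was the activin inhibitor Fstl3.

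Of 10 Smad regulators, Ppm1a was higher and 4 were lower, with a list median of -0.25. Pmepa1 was at 992 to 1335 against 2269 to 30402, all 3 tumors below the 25 (-3.12; SE, 0.60; limma adjusted p = 0.000144). The ubiquitin ligase Nedd4l (-1.60; SE, 0.46; adjusted p = 0.0074), the corepressor Skil (-0.99; SE, 0.37; adjusted p = 0.034) and the corepressor Tgif1 (-0.93) were also lower. Skil, like Smad7 and Pmepa1, is known to be induced by TGF-beta.

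Of 14 response genes, Id3 was higher (2.09; SE, 0.82; limma adjusted p = 0.0446) and Ctgf (-2.71; SE, 0.55; adjusted p = 0.000243), Id2 (-2.04; SE, 0.42; adjusted p = 0.000322) and Postn (-1.12; SE, 0.35; adjusted p = 0.014) were lower, with a list median of -0.92. Ctgf encodes a matricellular protein and Id2 and Id3 inhibitors of transcription factors. The calls of Skil, Smad9, Grem1 and Inhba were lost when T11 joined the claudin-low group with genotype as a term, with adjusted p from 0.108 to 0.365, and Id3 was not called without filter or after quantile normalization (0.0611 and 0.0631).

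**Figure D5:**
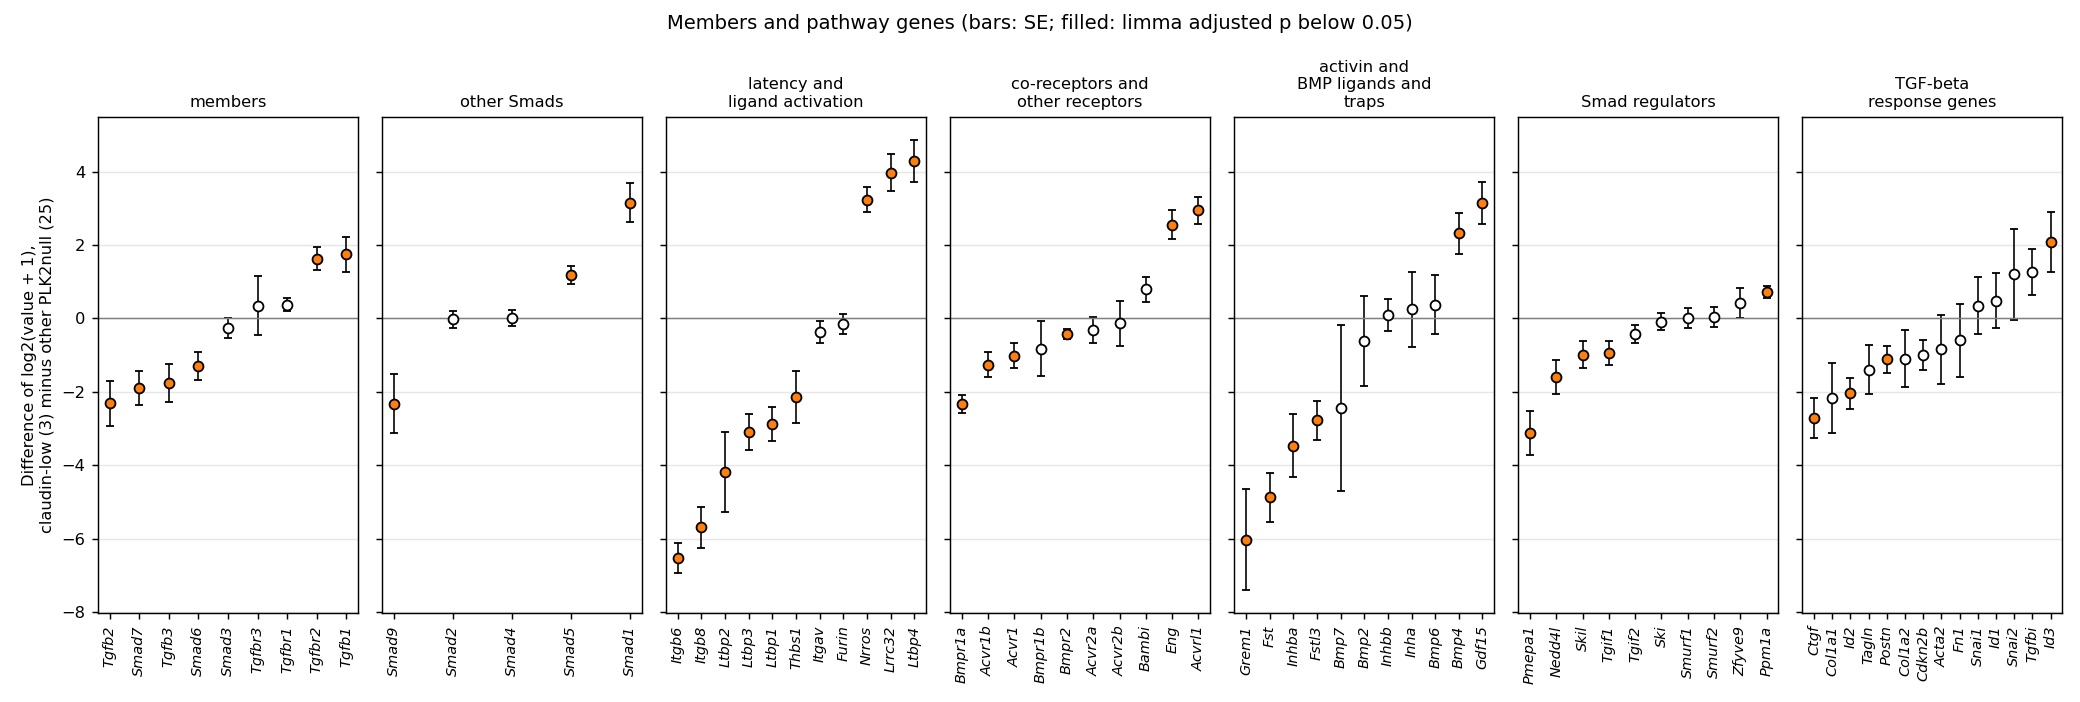
Difference in log2(value + 1) between 3 claudin-low and 25 other PLK2null tumors (bars, SE) for the 9 members and the genes of 6 pathway lists, where filled points passed an adjusted p below 0.05. Itgb6, Grem1 and Itgb8 lie lowest and Ltbp4 highest.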

How the data were processed

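RNA-seq was made from 41 tumors, 1 library each. The authors used STAR 2.7.6a to align the reads to mm10, quantified genes with Salmon 1.4.0 (versions from the submitters' processing notes) and deposited a linear signal with each tumor's upper quartile of nonzero values set to 1000. The gene annotation is not given in the sources used here. Between 77.9 and 80.5% of nonzero values lay within 0.1 of a whole read, too few to recover reads, so no count model was used. Intervals and floors from reads cover counting error only.

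Values were tested as log2(value + 1) with limma 3.58.1 (R 4.3.3) where a gene averaged 10 or more over the fitted tumors, with Benjamini-Hochberg adjustment over all of them and a threshold of 0.05. Folds on this scale understate changes of low genes. Genotype came from the labels and the claudin-low class from the study. The members and lists were chosen with earlier results of these data known. Named pathway genes were, in each list and comparison, the 3 called genes with the largest difference. For likeness they were the 3 genes with the highest Spearman's rho, predicted genes left out. On simulated data, 57 of 90 genes changed by 1 on the log2 scale and 84 of 101 changed by 2 were called in the genotype design (5 false calls among 16760 genes). In the claudin-low design, 35 of 104 and 61 of 93 were called (8 among 16745). Simulated tumors were independent draws, and far fewer genes were changed than the 39.5% and 37.3% called in the data. Recovery and false calls in the real fits can therefore differ from these counts. Python 3.11.15, pandas 2.3.3 and scipy 1.17.1 were used, and gene lengths came from GENCODE vM21 (GRCm38). Alternatives were other pseudocounts, filters and scalings, a trend and fewer tumors. A further response gene is not reported here.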

Additional observations from a re-analysis of the deposited data

Results flagged for a closer look

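In the 7 PLK2null tumors that the study names as primary, a tumor stood apart from the other 6 by Dixon's criterion on the linear signal for 3 of 9 members. With normally spread values, chance alone gives about 1 in 20. The criterion was not run on the other genes, so 3 of 9 cannot be read as more than their share. Tgfb2 was at 3660.1 in PLK2null-7750, against 1392 in the next tumor. Smad3 was at 4461 in PLK2null-7747, against 2797 in the next. Both tumors belong to the blocks described above, whose other tumors are not among the 7. In those other tumors Tgfb2 was at 3644 to 4240.5 (PLK2null-1984 to PLK2null-1986) and Smad3 at 3302 to 4453 (PLK2null-1963 to PLK2null-1965). Smad6 was at 659.6 in PLK2null-7748, against 339 in the next. On the scale of log2(value + 1), chosen after seeing the data, Tgfb2 and Smad6 no longer met the criterion (gaps of 0.31 and 0.42 of the range, against a critical 0.568), Smad3 did (0.58), and so did Tgfbr2, which was lowest in PLK2null-7748 (1406; gap of 0.59).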

How the results depend on the processing

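The 6 claudin-low calls among the members were the same genes with a pseudocount of 10, no filter, a mean of at least 50, a trend, quantile normalization, TMM and without PLK2null-7763. Setting the 4 claudin-low tumors against 37 with genotype as a term left 5 (Tgfb3, adjusted p = 0.0559), and 3 against the 7 named primary tumors left 4 (Tgfb2 and Tgfb3, 0.0938 and 0.089). Leaving out each tumor in turn gave 4 to 6 calls for the claudin-low comparison, 1 to 2 for genotype and 0 to 1 for the interaction, the last chosen after seeing the data. The 7 named primary tumors against 13 called 0 members and 2942 of all genes, against 6802 in the full comparison. Per kb, 5 of 9 members kept their place in the order of medians of the deposited values.

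Uncalled genotype differences changed sign. Tgfb2 became -0.054 with quantile normalization, -0.14 with TMM and -0.11 with the 7 named primary tumors, where Tgfb1 became -0.025. Tgfbr3 became -0.010 with quantile normalization, -0.096 with TMM, -0.016 without PLK2null-7763 and -0.072 without the 4 claudin-low tumors. In the claudin-low comparison Tgfbr3 became -0.017 with 4 tumors against 37. Leaving out 1 tumor moved the genotype difference of Tgfb1 between -0.0050 and 0.33, of Tgfb2 between -0.22 and 0.17 and of Tgfbr3 between -0.14 and 0.17. Among pathway genes between genotypes, Smad5 and Ltbp4 were each not called after 24 of 41 such omissions and Bmpr1b after 14, and in the claudin-low comparison Id3 was not called after 14 of 28. The cause was not tested. No paired analysis was possible because the labels give tumor numbers and no replicate numbers shared between groups. Depth limits the genes near 3 reads, such as Smad9, Itgb6 and Grem1 in the claudin-low PLK2null tumors.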
